A study of Mus musculus with 2 samples.

Results

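The phase II conjugation enzymes described here are the UDP-glucuronosyltransferases (Ugt), cytosolic sulfotransferases (Sult) and glutathione transferases (Gst). Members were chosen by name, as gene symbols of the families Ugt1a, Ugt2a, Ugt2b, Ugt3a, Sult1 to Sult5, Gsta, Gstm, Gstp, Gstt, Gstk, Gsto and Gstz, and by a total of at least 20 UMIs over both libraries. Of 32285 measured genes, 62 had such a name and 44 of these reached the total: 15 Ugt, 8 Sult and 21 Gst genes. The least abundant members were Ugt1a6b with 41 UMIs and Ugt1a5 with 62, and the most abundant genes left out were Ugt2b38 and Sult4a1 with 16 each. No Sult3, Sult4 or Sult5 gene reached the total.

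The hKO library came from liver tumors of C57BL/6J mice with a hepatocyte knockout of Fabp5, made with Alb-CRE-ER, a tamoxifen-activated recombinase under the albumin promoter. Tumors of wild-type littermates gave the WT library. Mice of both groups received 5 injections of tamoxifen at 100 mg/kg, 3 days apart and after 16 h without food, at an age of 6 to 8 weeks. Both groups then ate CD-HFD, a choline-deficient high-fat diet that leads to fatty liver disease and hepatocellular carcinoma, for 15 months. Each library pooled 2 to 3 tumors and was made by droplet single-cell 3′ RNA sequencing, which counts transcripts by unique molecular identifiers (UMIs). With 1 library per group there is no replicate, so no test was possible, every value describes these 2 pools, and intervals (95%) cover counting error only. The design asks how tumor and immune cells differ without hepatocyte FABP5, a fatty acid binding protein.

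Phase II enzymes attach a polar group to drugs, steroids, bile acids, bilirubin and reactive lipid products, which makes them soluble and ready for export. Glucuronosyltransferases sit in the endoplasmic reticulum and use UDP-glucuronic acid, sulfotransferases in the cytosol use the sulfate donor PAPS, and glutathione transferases join glutathione to electrophiles. Hepatocytes are the main site of this chemistry in the liver, and glutathione transferases of the pi class are long known as markers of early liver tumor foci in rats.

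After filtering, the hKO library held 10402 cells with 48298750 UMIs and the WT library 9459 cells with 48316789 UMIs. Clusters were named from fixed marker genes, with the members left out of the clustering so that they could not place the cells. Unnamed clusters held 1232 hKO and 271 WT cells. Hepatocyte-like cells numbered 1104 in hKO (3696359 UMIs, median 1517.5 per cell) and 473 in WT (3634343 UMIs, median 1931). They lay in different clusters: all but 2 of the hKO cells were in clusters 20, 21, 29 and 41, and nearly all WT cells in clusters 26, 35 and 29. Where 1 library supplies almost all cells of a cluster, the cluster may stand for the library instead of a cell state. The clusters also differed in liver genes. Afp stood at 200 and 292 CPM in WT clusters 35 and 26, and at 0 to 8.76 CPM in the 4 main hKO clusters. Cyp2f2 stood at 10.4 and 19.1 CPM in these WT clusters and 102 to 1515 CPM in hKO. Apoa1 was higher in both WT clusters, and Alb and Ttr overlapped. The part of this in the member ratios was not tested. The median mitochondrial share of hepatocyte-like cells was 18.6% in hKO and 9.56% in WT, and the 16 hepatocyte markers made up 9.65% of UMIs in hKO and 7.56% in WT. Fabp5 itself stood at 13.5 CPM (counts per 1000000 UMIs of the class; 10.0 to 17.8) in hKO hepatocyte-like cells and 34.7 CPM (28.9 to 41.3) in WT. It lay between 5.23 and 17.9 CPM in the 4 main hKO clusters, and at 14.0 CPM in WT cluster 35 and 106 CPM in WT cluster 26, so it did not separate the libraries in cluster 35, which holds 76.7% of WT hepatocyte-like UMIs. The libraries shared 29 barcodes among kept cells and none among hepatocyte-like cells (0).

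The families moved in different directions in hepatocyte-like cells. All members together made up 13828 CPM in hKO (13708 to 13948) and 7377 CPM in WT (7289 to 7466), a log2 ratio of 0.91. The Ugt genes accounted for nearly all of this: their summed level was 6856 CPM in hKO and 699 CPM in WT, 9.81 times as high in hKO. The Sult genes summed to 252 CPM in hKO and 577 CPM in WT, 0.437 times the WT level. The Gst genes were close in sum, at 6719 CPM in hKO and 6101 CPM in WT. The makeup of the members' UMIs therefore differed: Ugt2b took 47.7% in hKO and 9.15% in WT, while Gstm took 24.2% in hKO and 38.8% in WT.

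**Figure D1:**
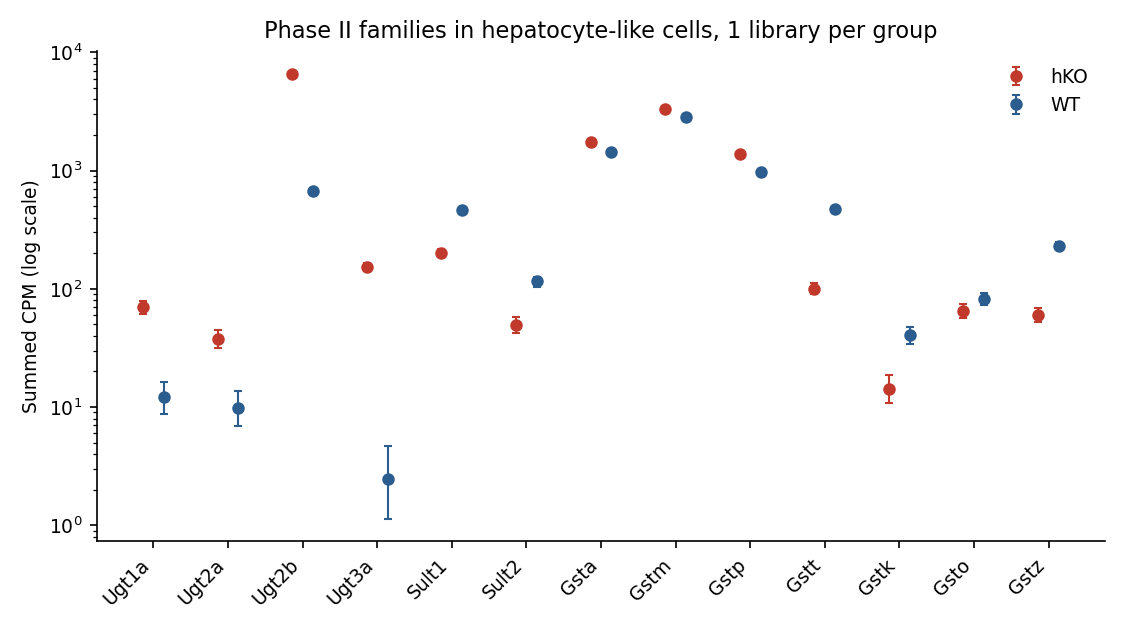
Summed CPM (log scale) of each family in hepatocyte-like cells of hKO (red, left of each pair) and WT (blue, right), with exact Poisson 95% intervals for counting error only and 1 library per group. Ugt1a, Ugt2a, Ugt2b and Ugt3a are higher in hKO, Sult1, Sult2, Gstt, Gstk and Gstz are lower, and Gsta, Gstm, Gstp and Gsto lie close together.

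A member was compared singly where it reached 50 CPM in a library, and it was called higher or lower at a log2 ratio (hKO over WT) of at least 1 in size with an interval that excludes 0. Of the 44 members, 24 reached the level, and 9 were higher, 7 lower and 8 neither. Over all 3762 genes that reached the level, 10.8% were higher and 41.7% lower by the same rule. The median log2 ratio was 0.095 over the 24 members and −0.76 over all those genes, so the typical gene was itself lower in hKO. The share called higher among the members that reached the level was 37.5%, and the share called lower was 29.2%, beside the 10.8% and 41.7% of all genes. With ratios centred on the median of all genes, 11 members were higher and 3 lower. The 9 higher genes were the same under that centring, while of the 7 lower ones only 3 stayed lower, Gstt1, Gstz1 and Sult2a2.

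**Figure D2:**
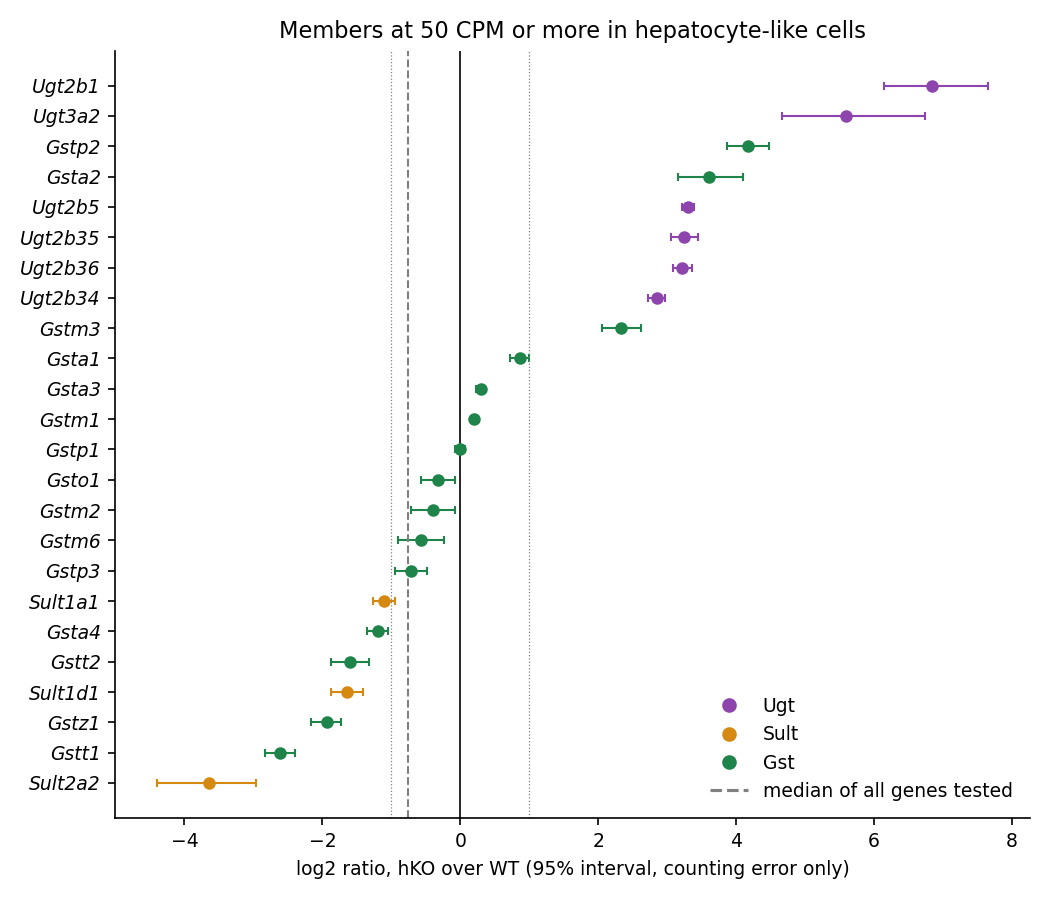
The log2 ratio, hKO over WT, of the 24 members with at least 50 CPM in hepatocyte-like cells of a library, ordered by size and colored by enzyme class, with 95% conditional binomial intervals. Dotted lines mark a ratio of 1 in size and the dashed line the median of all genes tested, −0.76. Ugt genes fill most of the top, Sult and theta and zeta class Gst genes the bottom.

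The Ugt2b genes, whose enzymes conjugate steroids, bile acids and many drugs, were the most abundant Ugt family in both libraries. Ugt2b5 had 11322 UMIs in hKO and 1127 in WT, which is 3063 CPM (3007 to 3120) in hKO and 310 CPM (292 to 329) in WT. Ugt2b36 stood at 1211 CPM in hKO and 130 CPM in WT. Ugt2b34 stood at 1171 CPM in hKO and 163 CPM in WT. These 3 and Ugt2b35 (634 CPM in hKO and 66.9 CPM in WT) had log2 ratios of 2.85 to 3.30, close to that of the family sum, 3.29 (3.23 to 3.35). Ugt2b1 stood apart: it had 507 CPM in hKO and 4.40 CPM in WT, a log2 ratio of 6.85 (6.14 to 7.66), the largest of the 24. The low-abundance Ugt2b37 had 32 UMIs in hKO and 1 in WT. Ugt2b genes lie in a tandem array on chromosome 5 together with Ugt2a3, a family member known in human to conjugate bile acids, which had 37.6 CPM in hKO and 9.91 CPM in WT. Its log2 ratio of 1.92 was 0.24 without WT cluster 35 and 0.62 with each cell weighted equally, and WT cluster 26 had 29.97 CPM of it. None of the 6 Ugt2b members shared a window of 100 bases in the last 600 bases of its GENCODE M21 transcripts with another gene, so by this measure their 3′ reads are not shared.

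The Ugt3a enzymes are an unusual pair that in human use UDP-sugars other than UDP-glucuronic acid. Ugt3a2 had 444 UMIs in hKO and 9 in WT, or 120 CPM (109 to 132) in hKO and 2.48 CPM in WT, a log2 ratio of 5.60 (4.66 to 6.74). Ugt3a1 had 124 UMIs in hKO and 0 in WT, at least 40.6-fold higher in hKO against a floor of 3 counts over the class. Both genes were near absent from WT hepatocyte-like cells.

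The Ugt1a locus on chromosome 1 makes several enzymes from alternative starting exons that share the same last exons, and Ugt1a1 conjugates bilirubin. All or part of the 3′ windows of each Ugt1a member, 46.7% for Ugt1a7c and 63.8% to 100% for the others, also occur in other Ugt1a genes, and reads that match several genes are dropped in counting by Cell Ranger. The Ugt1a levels may therefore be too low, and how reads split among the genes is uncertain. With that limit, the family summed to 69.5 CPM in hKO (61.3 to 78.6) and 12.1 CPM in WT (8.80 to 16.3). Ugt1a1 had 101 UMIs in hKO and 6 in WT. Ugt1a9 had 98 UMIs in hKO and 0 in WT, 32.1-fold higher in hKO by the same floor, with a lower limit of 4.68 for the log2 ratio. Ugt1a6a, by contrast, had 19 UMIs in hKO and 20 in WT, a log2 ratio of −0.098 (−1.08 to 0.88). All 20 WT UMIs came from cluster 35, and 14 of the 19 hKO UMIs from cluster 41. With so few UMIs and an uncertain split of reads, whether the members of the locus moved together cannot be told.

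The promoters of Ugt1a1 and Ugt1a9 are shown because they are among 3 member promoters that hold a binding motif of hepatocyte nuclear factor 1 (HNF1), a transcription factor of liver genes. The third belongs to Sult1d1, which differed between the libraries in the opposite direction. The motif was spelled GTTAAT, then any base, then ATT, and was searched on both strands in the 300 bases from 250 before to 50 after the start of each gene. Of all 32851 promoter entries 0.399% held it, and of 38 members with an entry, Ugt1a1, Ugt1a9 and Sult1d1 did. It begins at position -45 in Ugt1a1 and -95 in Ugt1a9, on the reverse strand, and at -79 in Sult1d1, on the forward strand, with the start site as 0. Sequences are from RefSeq, build GRCm38.p6: chr1:88211709-88212008 (plus strand), chr1:88070529-88070828 (plus strand) and chr5:87568957-87569256 (minus strand). Capitals mark the motif.
Ugt1a1: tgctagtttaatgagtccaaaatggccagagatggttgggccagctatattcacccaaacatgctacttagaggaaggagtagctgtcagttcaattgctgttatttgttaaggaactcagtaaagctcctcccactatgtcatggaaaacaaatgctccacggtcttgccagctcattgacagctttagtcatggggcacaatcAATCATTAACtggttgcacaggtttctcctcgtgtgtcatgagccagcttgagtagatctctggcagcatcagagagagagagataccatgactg
Ugt1a9: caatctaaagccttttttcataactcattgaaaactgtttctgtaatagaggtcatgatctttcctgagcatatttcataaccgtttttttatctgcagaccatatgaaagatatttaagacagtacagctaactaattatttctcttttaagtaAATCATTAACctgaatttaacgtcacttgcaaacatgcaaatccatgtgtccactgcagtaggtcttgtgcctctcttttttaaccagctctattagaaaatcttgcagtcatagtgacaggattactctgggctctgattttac
Sult1d1: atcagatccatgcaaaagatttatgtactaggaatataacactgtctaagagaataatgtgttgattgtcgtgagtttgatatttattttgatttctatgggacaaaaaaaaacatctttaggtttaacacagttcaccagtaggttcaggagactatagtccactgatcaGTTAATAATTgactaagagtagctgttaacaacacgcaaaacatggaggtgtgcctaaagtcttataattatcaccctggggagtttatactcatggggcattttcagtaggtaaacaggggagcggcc
The core of the antioxidant response element, TGACNNNGC, through which NRF2 acts, was found in the windows of Gsta3, Gstm5 and Gstm7 and in 12.4% of all entries. A match is a description of these letters and not a binding site.

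Sulfotransferases were lower in hKO in both families with members. Sult1a1, which sulfates phenols, had 123 CPM (112 to 134) in hKO and 264 CPM (247 to 281) in WT, a log2 ratio of −1.10. Sult1d1, which in mouse acts on catecholamines and other small phenols, had 55.7 CPM in hKO and 174 CPM in WT, a log2 ratio of −1.64. The Sult1a1 value rested on WT cluster 26, without which its log2 ratio was 0.24, and was −2.68 without WT cluster 35. Sult2a2, of the group that sulfates hydroxysteroids and bile acids, had 19 UMIs in hKO and 233 in WT, or 5.14 CPM in hKO and 64.1 CPM in WT. Its log2 ratio of −3.64 (−4.40 to −2.97) was the lowest of the 24, though 23.4% of its 3′ windows are shared with Sult2a4 and Sult2a5. Sult2a1, under the level for a call, had 3 UMIs in hKO and 83 in WT, of which 80 were in cluster 35 and 0 in cluster 26. Sult2a8 had 144 UMIs in hKO and 64 in WT, also under the level. Its WT clusters differed widely: it lay at 21.4 to 93.5 CPM in the hKO clusters, and at 1.08 CPM in WT cluster 35 and 80.4 CPM in WT cluster 26.

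The alpha class of glutathione transferases, which detoxify lipid peroxidation products and plant and fungal toxins, split by gene. Gsta3, known in mouse for conjugating activated aflatoxin, was the most abundant, at 1124 CPM in hKO and 917 CPM in WT, and was not called. Gsta1 stood at 336 CPM in hKO and 184 CPM in WT, a log2 ratio of 0.86 (0.73 to 1.00), just short of the size rule. Gsta2 was higher, at 145 CPM in hKO and 11.8 CPM in WT. Gsta4, the enzyme of 4-hydroxynonenal, was lower, at 137 CPM in hKO and 314 CPM in WT, a log2 ratio of −1.20. The Gsta4 ratio fell short of the size rule without WT cluster 35 (−0.76), without hKO cluster 20 (−0.87) and with abundant genes left out of the total (−0.97). Gsta1 and Gsta2 share 82.9% and 36.6% of their 3′ windows with other genes, each other included, so the split between them is uncertain.

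In the mu class, Gstm1, the main liver enzyme of the class, carried most of the family, with 3015 CPM in hKO and 2624 CPM in WT. Gstm2, with 40.3 CPM in hKO and 52.8 CPM in WT, and Gstm6, with 35.4 CPM in hKO and 52.6 CPM in WT, also missed the size rule. Gstm3 was higher, at 182 CPM (168 to 196) in hKO and 36.0 CPM (30.1 to 42.8) in WT. That call rested on the deep WT cluster 35, where Gstm3 was at 6.10 CPM: without cluster 35 the log2 ratio was 0.43, against 2.33 with it. Below the level for a call were Gstm4, with 48.4 CPM in hKO and 20.1 CPM in WT, Gstm5, with 19.2 CPM in hKO and 37.1 CPM in WT, and Gstm7, with 7.58 CPM in hKO and 41.8 CPM in WT.

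The pi class held a contrast between neighboring genes. Gstp1 was level, with 3100 UMIs in hKO and 3070 in WT, or 839 CPM (809 to 869) in hKO and 845 CPM (815 to 875) in WT. Its log2 ratio lay between −0.59 and 1.09 over the alternatives. Gstp2, beside it on chromosome 19, had 1791 UMIs in hKO and 98 in WT, or 485 CPM (462 to 508) in hKO and 27.0 CPM in WT, a log2 ratio of 4.17. The 2 genes are close copies: 29.4% of the 3′ windows of Gstp1 and 51.3% of those of Gstp2 occur in another gene, so the split between them is uncertain in part. Gstp3 had 66.8 CPM in hKO and 110 CPM in WT and was not called. The promoters of Gstp2 and Gstp1 are shown because these near copies differed in level by library; aligned end to end they match at 246 of 300 bases. They are chr19:4042172-4042471 and chr19:4037863-4038162 (minus strand, GRCm38.p6, RefSeq), and capitals mark bases without a match in the other promoter.
Gstp2: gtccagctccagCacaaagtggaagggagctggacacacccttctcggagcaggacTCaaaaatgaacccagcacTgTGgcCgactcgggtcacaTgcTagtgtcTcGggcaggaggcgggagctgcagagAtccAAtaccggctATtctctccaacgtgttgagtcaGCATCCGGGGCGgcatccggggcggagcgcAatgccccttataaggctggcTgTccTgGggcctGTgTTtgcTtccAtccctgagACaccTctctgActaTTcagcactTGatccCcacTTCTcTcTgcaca
Gstp1: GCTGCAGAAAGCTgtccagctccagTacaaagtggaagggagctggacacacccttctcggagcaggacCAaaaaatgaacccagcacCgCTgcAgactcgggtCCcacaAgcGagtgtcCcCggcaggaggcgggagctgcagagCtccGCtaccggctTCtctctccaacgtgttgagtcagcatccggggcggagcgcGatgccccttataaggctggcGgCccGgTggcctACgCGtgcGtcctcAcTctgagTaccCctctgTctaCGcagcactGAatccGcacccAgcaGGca

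The theta and zeta classes were lower in hKO. Gstt1, which acts on small halogenated compounds, had 54.6 CPM (47.4 to 62.7) in hKO and 335 CPM (317 to 354) in WT, a log2 ratio of −2.62. Gstt2 had 39.2 CPM in hKO and 119 CPM in WT, and Gstt3, under the level for a call, 6.49 CPM in hKO and 19.8 CPM in WT. Gstz1, the maleylacetoacetate isomerase of tyrosine breakdown, had 60.3 CPM (52.7 to 68.8) in hKO and 231 CPM (216 to 248) in WT, a log2 ratio of −1.94. Gstk1, an enzyme of mitochondria and peroxisomes, had 14.3 CPM in hKO and 40.4 CPM in WT. Gsto1, an omega class enzyme that reduces dehydroascorbate, was near level, with 64.9 CPM in hKO and 81.2 CPM in WT. Gsto2 had 0 UMIs in hKO and 3 in WT, too few for a ratio. Of the 20 members under the level, the remaining ones, Sult1b1, Sult1c2, Sult2b1, Ugt1a5, Ugt1a6b and Ugt1a7c, had at most 20.6 CPM in a library.

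Within each library the hepatocyte-like clusters differed in their members. In hKO, Ugt2b summed to 13376 CPM in cluster 20 (423 cells), 9421 CPM in cluster 21 (367 cells, median 874 UMIs), 3011 CPM in cluster 41 (56 cells, median 27147 UMIs) and 1068 CPM in cluster 29 (256 cells). In WT it summed to 233 CPM in cluster 26 (325 cells, median 1300 UMIs) and 805 CPM in cluster 35 (117 cells, median 21454 UMIs). Ugt2b5 was among the leading genes of clusters 20 and 21, and every hKO cluster lay above both WT clusters in the family sum. Gst genes led other hKO clusters: Gstm1, Gsta1 and Gsta3 led cluster 29, where Gstm summed to 6448 CPM and Gsta to 3265 CPM, and Gstp2 and Gstp1 led cluster 41, where Gstp summed to 2151 CPM. Clusters 20 and 21 had only 598 and 625 CPM of Gstp. As ratios, the family differences among these hKO clusters were thus larger than the hKO to WT difference for Gsta, Gstm and Gstp. The same held for Ugt2b (6596 CPM in hKO and 675 CPM in WT over the class), Ugt1a, Sult1, Sult2, Gstk, Gsto and Gstz. It did not hold for Ugt2a, Ugt3a and Gstt. Sult1 lay at 55.5 to 553 CPM in the hKO clusters, and at 248 CPM in WT cluster 35 and 1296 CPM in WT cluster 26, of which Sult1a1 gave 894 CPM. Neither WT cluster had a fixed hepatocyte marker among its 10 leading genes, although 16 and 14 of the 16 markers were raised. A cluster without such a marker was left unnamed under 33.3% of its library's median depth. Cluster 26 stood at 34.0% of the WT median and so kept its name narrowly.

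**Figure D3:**
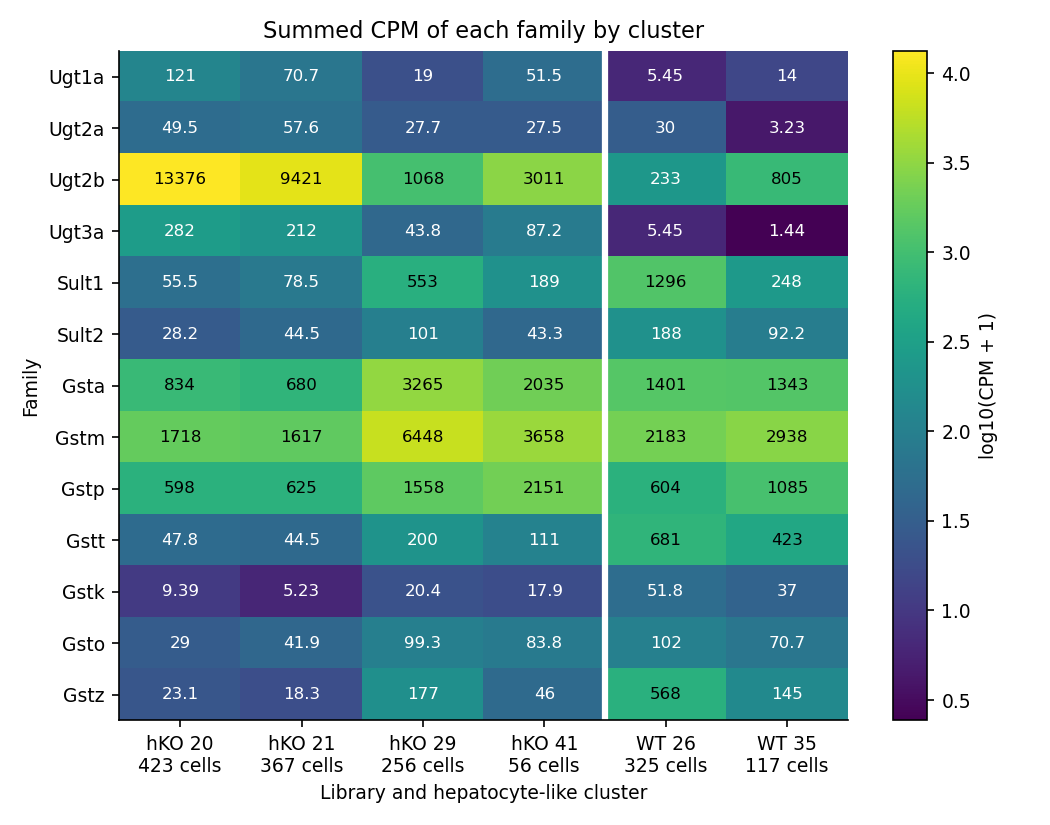
Summed CPM of each family (rows) in hepatocyte-like clusters with at least 30 cells of a library (columns, 4 hKO clusters left of the white line and 2 WT clusters right), printed in each cell and colored by log10(CPM + 1). Ugt2b runs from 1068 to 13376 CPM in hKO and is 233 and 805 CPM in WT.

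The sizes depended on which clusters and cells were counted. The log2 ratio of the Ugt2b sum lay between 2.26 (mitochondrial limit of 10%) and 4.75 (without WT cluster 35) over all alternatives, and the Gstt sum between −2.75 and −1.48. The sum of all Sult genes, −1.19, was −0.46 without WT cluster 26 and −2.43 without WT cluster 35. The sums of Gsta, Gstm, Gstp and all Gst genes changed sign under some alternatives: over all of them Gsta lay between −0.14 and 1.05 and Gstm between −0.41 and 0.99. The median of the members at the level, 0.095, was −0.76 without cluster 35, the deepest WT cluster. Of the 16 called members 14 kept their sign under every alternative, and the exceptions were Sult1a1 and Gstm3, at −0.024 with each cell weighted equally.

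Over clusters with at least 30 cells of a library, that is 4 in hKO and 2 in WT, every hKO cluster lay above every WT cluster for 8 of the 24 members: Gsta2, Gstm3, Gstp2, Ugt2b1, Ugt2b35, Ugt2b36, Ugt2b5 and Ugt3a2. The same held for 4.94% of all genes that reached the level. The 29 WT cells of cluster 29 are under that limit, and counting them ends it for Gstm3 (1539 CPM there), Gsta2 (481 CPM) and Gstp2 (173 CPM, beside 163 CPM in hKO cluster 20). For 3 members, Gstt1, Gstt2 and Sult2a2, every hKO cluster lay below every WT cluster, beside 15.6% of all genes. The other 13 overlapped, among them Ugt2b34, at 171 CPM in hKO cluster 29 and 204 CPM in WT cluster 35. Clusters are not replicates, so these counts describe the cells of 2 libraries.

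Cluster 29 was the only hepatocyte-like cluster with more than 2 cells of each library, and its 256 hKO and 29 WT cells allow a comparison within 1 cluster. With 29 cells, WT is under the 30 set for a cluster, and WT cells there held 51974 UMIs. Of 29 members at the level, 4 were higher and 9 lower in hKO, beside 4.19% higher and 13.3% lower of all 3820 genes. Ugt2b5 (457 CPM in hKO and 115 CPM in WT), Ugt2b34 (171 CPM in hKO and 38.5 CPM in WT), Gstp2 (426 CPM in hKO and 173 CPM in WT) and Sult1a1 (345 CPM in hKO and 135 CPM in WT) were higher. Gsta1 was lower, at 615 CPM in hKO and 2405 CPM in WT, as was Gstm3, at 327 CPM in hKO and 1539 CPM in WT. The direction of Sult1a1 and Gstm3 was thus opposite to that over the whole class. Several of these values rest on few WT UMIs. Sult1a1 had 7 in WT (log2 ratio 1.36, 0.29 to 2.69), Ugt2b5 6, Ugt2b34 2 and Gstp2 9, against 80 for Gstm3 and 125 for Gsta1. Sult2a1 counted as lower with 1 UMI in hKO and 3 in WT. Gstt1 (111 CPM in hKO and 346 CPM in WT) and Sult2a2 (2 UMIs in hKO and 17 in WT) were lower here too. The 16 hepatocyte markers made up 2.65% of UMIs in the hKO cells and 1.48% in the WT cells of this cluster. Their share was 6.28% to 17.1% in the other main hKO clusters and 7.64% and 7.88% in WT clusters 35 and 26. In hKO erythroid-like cells it was 1.38%. Spp1, a cholangiocyte marker, stood at 656 CPM in the hKO cells and 3502 CPM in the WT cells of cluster 29. WT cluster 35 had 2700 CPM of it. Krt19 stood at 0 in hKO and 19.2 CPM in WT cells of cluster 29. The part of these markers in the result was not tested.

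To compare shares of cells at equal depth, each cell was thinned to 1000 UMIs, which left out 303 hKO and 132 WT hepatocyte-like cells as too shallow. A Ugt2b5 UMI was then found in 79.5% of hKO (76.6 to 82.3) and 11.7% of WT hepatocyte-like cells (8.51 to 15.6), and without thinning in 88.9% of hKO and 26.6% of WT cells. T-like cells, which should lack the gene, had one in 17.7% of hKO and 0.492% of WT cells after thinning, at median depths of 3751 UMIs in hKO and 3711 in WT. Hepatocyte-like shares therefore stand on a higher background in hKO. Ugt2b1 was found in 40.8% of hKO and 2.05% of WT hepatocyte-like cells (54.7% of hKO and 2.54% of WT cells unthinned), and in 3.99% of hKO and 0.0702% of WT T-like cells. Gstt1 was found in 3.62% of hKO (2.44 to 5.16) and 28.4% of WT cells (23.7 to 33.6), or unthinned in 11.9% of hKO and 54.8% of WT cells, and Gstz1 in 5.24% of hKO and 28.4% of WT cells. Gstm1 and Gsta3 were found in similar shares, Gstm1 in 74.5% of hKO and 66.0% of WT cells, and Gsta3 in 45.8% of hKO and 46.0% of WT cells. Ugt3a2 was found in 13.6% of hKO cells and in 0 of 341 WT cells, with an exact upper limit of 1.08% for the WT share at this depth. The floor of 3 counts in 341 cells would be 0.880%. Unthinned, 24.6% of hKO and 1.90% of WT cells had a Ugt3a2 UMI.

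The genes around conjugation were counted from 7 lists. In the supply of UDP-glucuronic acid, 4 of 6 genes reached the level, and the transporter Slc35d1 was the 1 called, higher at 344 CPM in hKO and 164 CPM in WT. Ugp2 and Ugdh, which make the sugar donor, were not called: Ugp2 had 634 CPM in hKO and 337 CPM in WT, and Ugdh 319 CPM in hKO and 277 CPM in WT. In the supply of the sulfate donor only Papss2, a PAPS synthase, reached the level, and it was lower, at 30.03 CPM in hKO and 60.3 CPM in WT. Of 7 glutathione genes at the level, 2 were higher and 1 lower: the cystine transporter Slc7a11 had 193 CPM in hKO and 76.5 CPM in WT, Ggt1, which breaks down glutathione outside the cell, had 194 UMIs in hKO and 2 in WT, and Cbs had 34.4 CPM in hKO and 72.6 CPM in WT. The rate-limiting Gclc was not called, at 581 CPM in hKO and 762 CPM in WT.

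Of 5 export and uptake genes at the level, 3 were higher and none (0) lower. Abcg2, a canalicular exporter of sulfate conjugates, had 251 CPM in hKO and 44.6 CPM in WT, Abcc4 had 368 CPM in hKO and 117 CPM in WT, and the uptake carrier Slco1b2 had 116 CPM in hKO and 8.25 CPM in WT. The bilirubin glucuronide exporter Abcc2 was not called, at 376 CPM in hKO and 592 CPM in WT. Among 7 other conjugating enzymes, Mgst1, a membrane-bound glutathione transferase, was higher at 4567 CPM in hKO and 1379 CPM in WT. Mgst3 (291 CPM in hKO and 99.6 CPM in WT) and the bile acid conjugating Baat (111 CPM in hKO and 21.2 CPM in WT) were higher too. The methyltransferases Tpmt (27.1 CPM in hKO and 161 CPM in WT) and As3mt (24.3 CPM in hKO and 56.7 CPM in WT) were lower. The epoxide hydrolases Ephx1 (638 CPM in hKO and 309 CPM in WT) and Ephx2 (230 CPM in hKO and 91.4 CPM in WT) were both higher. They hydrolyse epoxides and remove no conjugate, and they were the only genes at the level on the list of deconjugating enzymes, where Gusb, Arsa and Arsb were under it. Of 8 regulators at the level, 0 were higher and 4 lower. Among the 4, Nfe2l2, which encodes NRF2, had 60.9 CPM in hKO and 238 CPM in WT, the liver factor Hnf4a 110 CPM in hKO and 419 CPM in WT and Arnt 26.5 CPM in hKO and 94.4 CPM in WT. The background for all these lists is the 10.8% higher and 41.7% lower given above.

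Outside hepatocyte-like cells few members passed a limit set from free hepatocyte RNA. The level that such RNA would give was set for each class and library from the hepatocyte markers, which ran at 4.71% to 14.3% of their hepatocyte-like level in the 10 other hKO classes and at 1.77% to 5.70% in the WT classes. Ugt2b5 shows this: T-like cells had 160 CPM in hKO and 5.03 CPM in WT, against a level from free RNA of 180 CPM in hKO and 10.1 CPM in WT. A member counted as above free RNA in a class at 20 CPM or more with an interval over 3 times that level, which 7 members met in a class of a library, and 4 of them in the same class of both libraries. With a factor of 10 in place of 3, 4 members met it. The rule was applied to members only, so no share of all genes stands beside these counts. The other 37 did not pass, which does not place them at the free RNA level: Gstk1 had 11.4 CPM in hKO and 18.6 CPM in WT endothelial-like cells, against a level of 0.762 CPM in hKO and 1.13 CPM in WT. Likewise Ugt1a6a had 9.81 CPM in hKO and 16.2 CPM in WT neutrophil-like cells, against 0.483 CPM in hKO and 0.313 CPM in WT. These 2 were chosen after their values were seen. The highest class was hepatocyte-like for 39 members in hKO and 35 in WT, with no share over all genes beside it. In WT, Ugt1a9 had 0 CPM in every class used, and Ugt1a6b, Ugt2b37 and Ugt3a1 at most 0.901 CPM. The difference between 39 and 35 thus rests in part on values near 0.

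Gsto1 was the member most widely above free RNA. Macrophage-like cells had 63.4 CPM (56.7 to 70.6) in hKO and 71.9 CPM (65.9 to 78.2) in WT, monocyte-like cells 63.6 CPM in hKO and 68.4 CPM in WT, and dendritic (conventional) cells 46.0 CPM in hKO and 51.0 CPM in WT. Endothelial-like cells had less, 32.4 CPM in hKO and 26.8 CPM in WT. The intervals of the libraries overlapped in each of these classes. Gstm2 was above free RNA in endothelial-like cells, at 56.9 CPM (48.5 to 66.5) in hKO and 53.0 CPM (48.3 to 58.1) in WT, beside its hepatocyte-like levels of 40.3 CPM in hKO and 52.8 CPM in WT. Sult2b1, a cholesterol sulfotransferase, was highest in NK or innate lymphoid-like cells, at 32.9 CPM in hKO and 38.5 CPM in WT, against 4.60 CPM in hKO and 10.7 CPM in WT hepatocyte-like cells. Gstp3 was above free RNA in T-like cells, with 37.9 CPM in hKO and 33.8 CPM in WT.

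Sult1a1 also had intervals that did not overlap between the libraries in 3 other classes. Endothelial-like cells had 22.1 CPM (16.9 to 28.3) in hKO and 67.9 CPM (62.5 to 73.6) in WT, macrophage-like cells 14.5 CPM (11.4 to 18.2) in hKO and 56.2 CPM (50.9 to 61.8) in WT, and conventional dendritic-like cells 18.1 CPM in hKO and 44.8 CPM in WT. These classes hold different cluster mixes: cluster 2 gave 715 of 940 hKO and 409 of 1699 WT macrophage-like cells, and cluster 24 gave 218 of 555 hKO and 128 of 1475 WT endothelial-like cells. The part of this mix in the Sult1a1 values was not tested. Sult1a1 was above free RNA in 0 classes of hKO and in these 3 classes of WT. By the rule for calls it was the 1 lower of 6 members at the level in endothelial-like and in macrophage-like cells. Of all genes at the level there, 2.10% and 1.55% were lower. Members called higher there numbered 4 and 3, beside 3.95% and 2.19% of all genes. In conventional dendritic-like cells Sult1a1 was under the level of 50 CPM. Gstt2 had 11.3 to 19.2 CPM in B-like, T-like, endothelial-like and NK or innate lymphoid-like cells of hKO and 20.1 to 21.6 CPM in those of WT, where it passed close to the limit of 20. Gstm5 had 5 UMIs in erythroid-like cells of hKO and 25 in those of WT, where it passed.

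**Figure D4:**
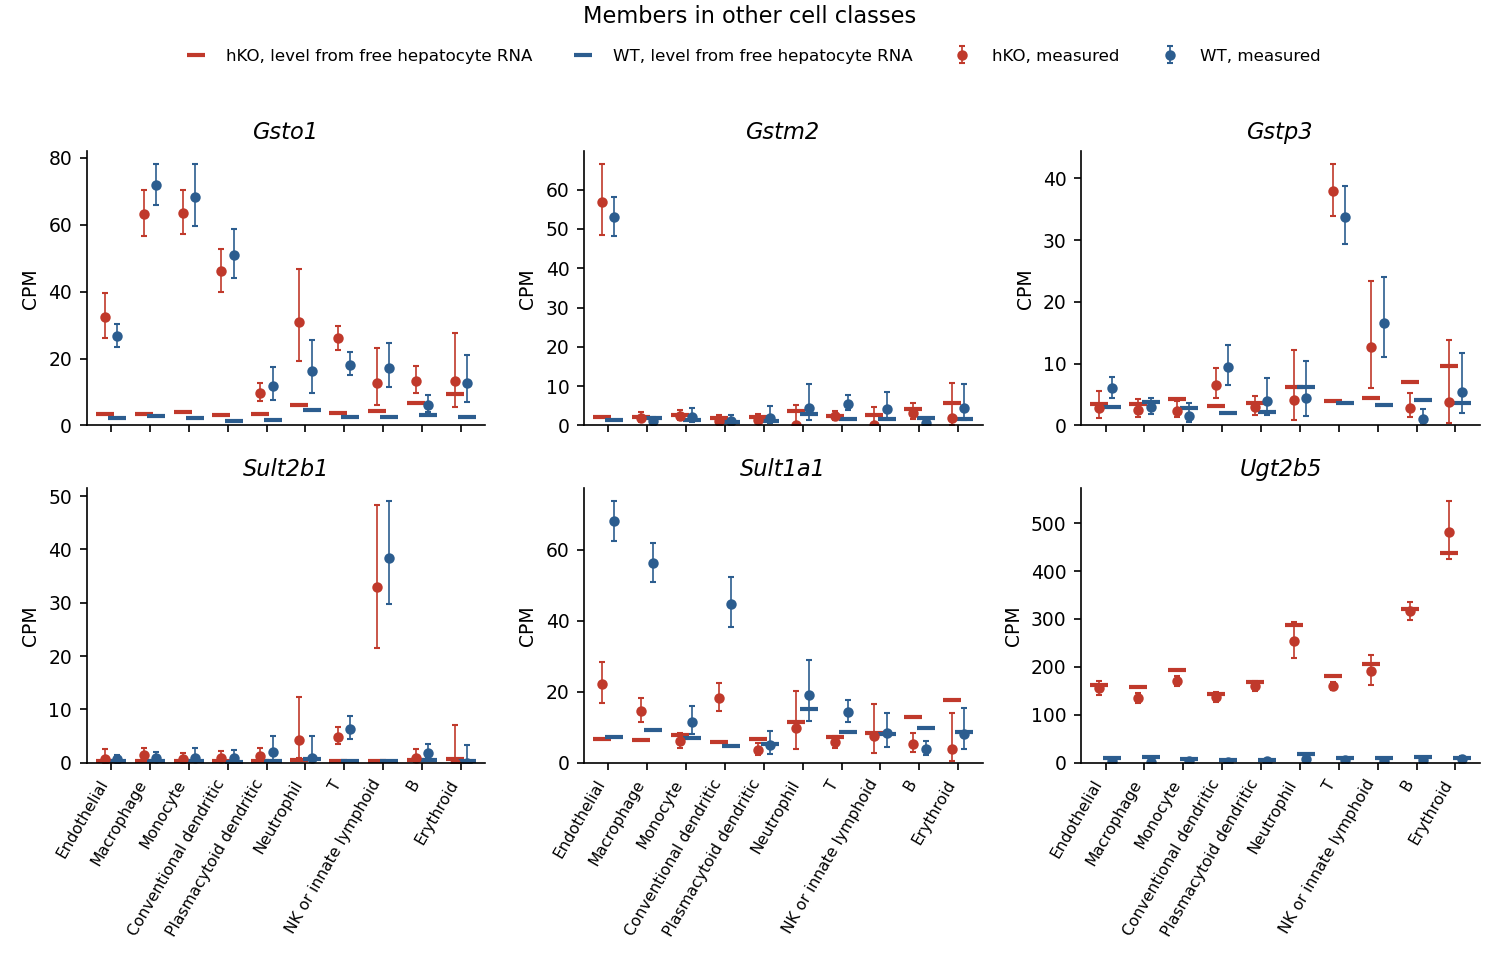
CPM of 6 members in 10 other cell classes of hKO (red, left) and WT (blue, right), with exact Poisson 95% intervals, beside the level that free hepatocyte RNA would give (dashes). Gsto1, Gstm2, Gstp3 and Sult2b1 stand above the dashes in the same classes of both libraries, Sult1a1 mainly in WT, and Ugt2b5 lies close to or below them.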

How the data were processed

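Single-cell RNA was measured in 2 tumor libraries, 1 of hKO and 1 of WT. The authors deposited UMI counts of each gene in each barcode, not normalized, from Cell Ranger 7.1.0 per the file headers. The other deposited columns name genes and barcodes and, per the file headers, hold no measurement. The submitters' processing notes name R 3.0, Seurat 3 and build mm9. No source used here gives the gene annotation. Group and treatment come from the labels. The hKO library held 18657 barcodes with 68010317 UMIs and the WT library 14289 with 58772330, with at least 500 UMIs each.

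Barcodes were kept with at least 200 genes, 500 UMIs and at most 25% mitochondrial UMIs, which removed 6864 hKO and 2645 WT barcodes at the mitochondrial limit. Scrublet's own threshold called 4.00% of WT cells doublets (394 removed) but 0.0175% of hKO cells, so there the 1049 cells with the highest scores were removed, to match an expected rate of 9.16%. Both libraries were clustered together without integration in scanpy 1.11.5, from counts per 10000 and log(1 + x). The 2000 variable genes, in total over both libraries, left out members, Fabp5, mitochondrial, ribosomal-protein and immunoglobulin genes. Clustering used 30 principal components, 15 neighbors and Leiden resolution 2.0. Of 44 clusters 40 were named from markers of 15 cell types. A cluster took the type whose markers were most raised (at least 3 markers at 30 CPM and a log2 ratio of 1), first over all other clusters and then over clusters of other types. The second pass was chosen after the clusters were seen, since the first called cluster 29 cholangiocyte. Among other reasons, a cluster stayed unnamed under 33.3% of its library's median depth with no own marker among its 10 leading genes. The ending -like stands for a name from markers only.

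UMIs were summed per class and library. CPM have exact Poisson intervals, log2 ratios (hKO over WT) exact conditional binomial ones and shares Clopper-Pearson ones. A count of 0 was set to 3 counts over the class, and its ratio depends on that floor. Every member may be named. Values in full are given from 50 CPM in hepatocyte-like cells or above free RNA in another class, and up to 3 called genes each way from each list. Ugp2, Ugdh, Gclc and Abcc2, not called, were chosen after their values were seen. The members and lists were chosen with earlier results of these data known. The ratio table was checked on simulated counts. Alternatives changed the filters, clusters, scaling, weighting and floors.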

Additional observations from a re-analysis of the deposited data

Results flagged for a closer look

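Barcodes above the mitochondrial limit were outside every comparison, and they hold a large Ugt2b signal. Of these, 2382 in hKO and 107 in WT met a hepatocyte gate (at least 5% of UMIs in hepatocyte markers and under 1% in markers of each other type), with 3210115 UMIs in hKO and 177990 in WT. With mitochondrial genes left out of the total, Ugt2b summed to 13176 CPM in hKO (13016 to 13339) and 804 CPM in WT (633 to 1008). Among the 24 members at the level in kept cells, 23 had the same sign of the log2 ratio there. The exception was Gstp1, with 482 CPM in hKO and 236 CPM in WT. Its ratio in kept cells was −0.010 (−0.083 to 0.062), on totals that include mitochondrial genes. Leaving these genes out of the kept-cell totals too raised every ratio there, that of the Ugt2b sum from 3.29 to 3.43. This shift is larger than the distance of Gstp1 from 0, so the exception rests on the unlike totals. Signs alone were counted, and no share over all genes stands beside the 23. The interval included 0 for Gstm2, Gstm6, Gstp3, Gsta4, Sult1d1 and Sult2a2, which had 2 to 8 UMIs each in WT. Gstt1 was again lower, at 41.5 CPM in hKO and 214 CPM in WT. The median mitochondrial share was 36.2% in hKO and 35.4% in WT, and what these barcodes are was not tested.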

How the results depend on the processing

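No paired analysis was possible because each group has 1 library. In hepatocyte-like cells the count of higher members, 9, was 14 with abundant genes left out of the total and 15 at a floor of 20 CPM. The count of lower members, 7, was 11 at clustering resolution 1.0, 11 without cluster 35, 12 with each cell weighted equally and 3 centred on the median of all genes. The median log2 ratio of members, 0.095, was −0.76 at resolution 1.0 and without cluster 35, −0.10 and −0.047 at mitochondrial limits of 10% and 50%, −0.078 with a hepatocyte gate per barcode, −0.23 with free RNA subtracted, −0.13 with cells weighted equally and −0.087 without cluster 29, an alternative chosen after seeing the data. It was 0.17 with stricter cell minimums, 0.47 with abundant genes left out, 0.86 when centred, 0.20 and 0.58 at floors of 20 and 100 CPM, 0.40 without cluster 20 and 0.31 without cluster 26. Sums that changed sign were Gsta, at −0.065 (limit of 50%) and −0.14 (cells weighted), Gstm, at −0.15 (limit of 50%), −0.41 (gate) and −0.056 (without cluster 29), Gstp, at −0.022 (limit of 50%) and −0.14 (without cluster 41), and Gsto, at 0.42 (centred). The sum of all Gst was −0.21 (limit of 50%), −0.27 (gate), −0.081 (free RNA subtracted), −0.18 (cells weighted), −0.081 (without cluster 41) and −0.082 (without cluster 29). Gstm3 was −0.024 with cells weighted and Sult1a1 0.24 without cluster 26. With a factor of 10, 4 members stood above free RNA in other cell types. By construction, resolution 1.0 left the deep WT cluster unnamed (356 WT hepatocyte-like cells), and a limit of 50% left the Rgn and Akr1c18 cluster unnamed (241). The cause of the other changes was not tested. For members under 50 CPM, few UMIs limit what this depth can show.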
